A study of Mus musculus with 6 samples.

Results

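The genes described here are the mouse collagens other than type IV, taken as every row of the expression tables whose symbol is Col, a number, the letter a and a number, apart from the Col4a genes. There were 38 of them among 24411 gene symbols. The RNA came from cochlear sensory epithelium of C57BL/6N mice at P9. In Kir2.1-OE mice the genotype was Otof rtTA+/-; Kir2.1+/-, and they carried 1 allele of an inward rectifier K+ channel under a tetracycline operator and 1 allele of rtTA driven by the promoter of Otof, a gene expressed in hair cells and mainly in inner hair cells (IHCs). Control littermates (Otof rtTA+/-; Kir2.1+/+, labelled WT) carried the same rtTA allele without the transgene. Doxycycline (DOX) was given to mothers of both groups, during pregnancy and nursing, at 0.5 mg/ml in the water they drank. Each group had 3 libraries, and each library was made from 1 pool of 8 cochleae from 4 mice, so that the pool is the replicate. The study calls the pools biological replicates and drew its animals from more than 1 cage and breeding pair, but which litters entered which pool is not given in the sources used here. The p-values measure the spread between these pools.

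Collagens are built of polypeptide chains wound into a triple helix. Fibrillar collagens assemble into banded fibrils, and fibril-associated collagens with interrupted triple helices (FACIT) decorate the surface of those fibrils. Other classes form hexagonal networks, beaded filaments or anchoring fibrils, span the plasma membrane, or lie in basement membrane zones. In the cochlea, type II, type IX and type XI collagens are known as the fibrils of the tectorial membrane, which overlies the hair cells, and they are also the main collagens of cartilage, which forms the early otic capsule. The question asked of these genes was which classes differed between Kir2.1-OE and control pools.

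Between 35430940 and 41205047 reads were assigned to genes in each library, so that a gene with no read could hold at most 8.47e-06% of a library (the share 3 counts would make, counting error only). Values are normalized counts, the authors' estimated reads per gene scaled by library size, and fold changes are log2 values of Kir2.1-OE over control. A gene was called when it passed edgeR's quasi-likelihood test at an adjusted p-value under 0.05 (Benjamini-Hochberg, over the 15303 genes tested) and its fold change exceeded 1.5. Values of single libraries are listed by replicate number, from 1 to 3. Kcnj2, which encodes Kir2.1, had 3612, 3813 and 2213 normalized counts in Kir2.1-OE and 236, 228 and 226 in controls (log2 fold change 3.80 ± 0.199 SE). The dissected tissue holds hair cells together with supporting cells and connective tissue, and in such bulk RNA fewer cells of a type and less RNA per cell cannot be told apart.

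Of the 38 collagens, 35 had enough counts to be tested, and every one of the 35 had a positive log2 fold change. Of these, 21 were called higher (60%) and 0 lower. Among all genes tested, 15.5% were called higher, 5.08% lower and 20.5% either way. By adjusted p-value alone 28 of the 35 passed, against 50.8% of all genes, and 7 of those 28 missed the fold change threshold. In 28 collagens the 3 Kir2.1-OE values all lay above the 3 control values, against 31.7% of all genes (29.9% the other way round, 61.6% in either direction). Tested against a log2 fold change of 0.6, 11 collagens were higher and 0 lower, beside 5.44% and 0.372% of all genes. The median log2 fold change was 0.71 (range 0.01 to 2.06), against 0.01 over all genes tested.

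Collagen transcripts are long, and the log2 fold changes of all genes moved with transcript length in these libraries (Spearman 0.56 across 15192 genes with a length, which are not independent replicates). The median collagen transcript had 5592 nt (range 2781 to 11511) with a median GC content of 55.4%, against 3380 nt and 49.9% for all genes tested. When a trend on length and GC content, fitted over all genes, entered the model as an offset, 6 of the 35 collagens were called higher (17.1%) and 0 lower, beside 6.45% and 3.4% of all genes, and the collagens had a median log2 fold change of 0.28, against -0.04 over all genes. The 6 were Col7a1, Col28a1, Col24a1, Col23a1, Col11a1 and Col16a1. With the offsets, 0 collagens exceeded a log2 fold change of 0.6 by test, beside 0.15% of all genes in the higher direction. The part of transcript length in the differences given below was not tested beyond this model, and each class is therefore given with and without the offsets.

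**Figure D1:**
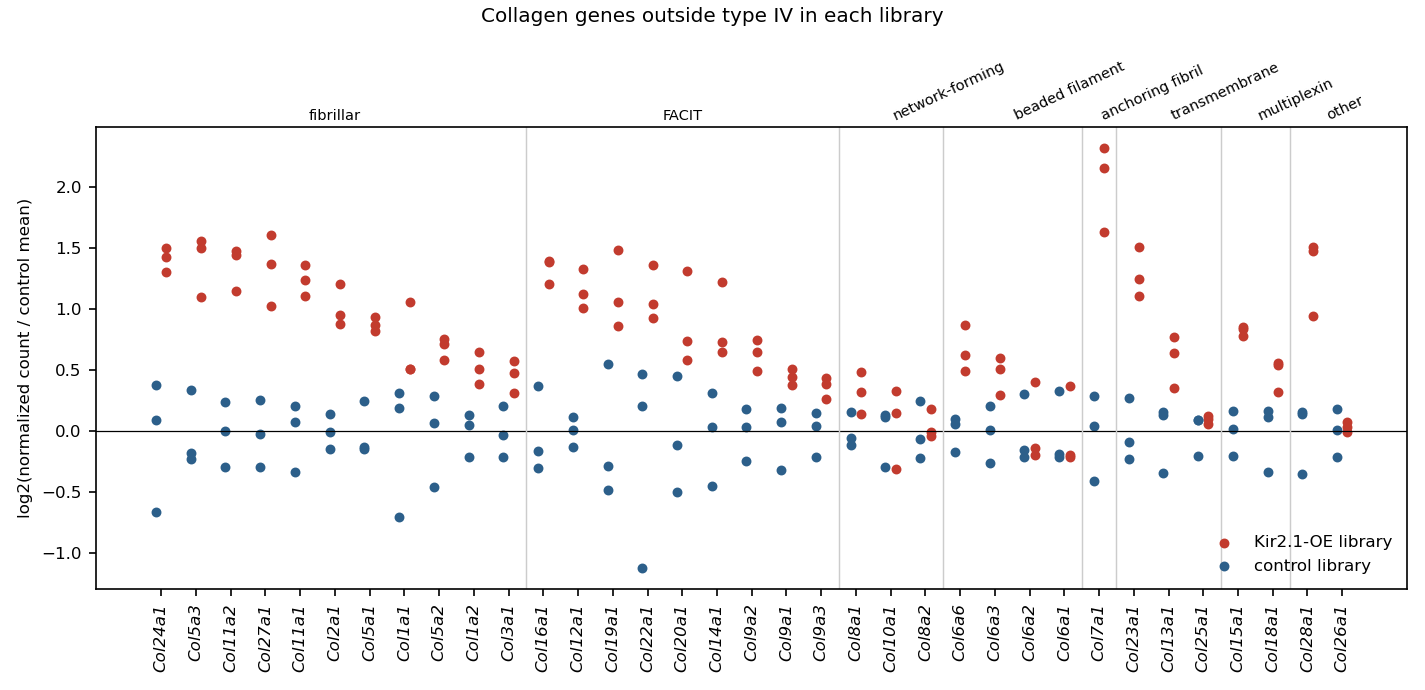
Collagens outside type IV in each library, as log2 of the normalized count over the mean of the control libraries (vertical axis), for the 35 genes tested in order of class (horizontal axis). Each point is 1 library, red for Kir2.1-OE and blue for control, and in 28 genes the red points all lie above the blue points.

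Sequences upstream of a few of these genes are shown because their members moved together or stood at the ends of the range. Col7a1 had the largest log2 fold change, Col11a1 and Col11a2 encode chains of the same collagen and were both called higher, and Col6a1 had the smallest log2 fold change. Each run holds the 250 bases before the RefSeq transcript start on the gene's own strand (RefSeq, GRCm38.p6), at chr9:108953336-108953585 (+) for Col7a1, chr3:114030290-114030539 (+) for Col11a1, chr17:34038888-34039137 (+) for Col11a2 and chr10:76726045-76726294 (-) for Col6a1. Capitals mark matches on either strand to the TATA box TATAAA, the CCAAT box, the GC box GGGCGG and the SOX cores ACAAAG and ACAATG.
Col7a1: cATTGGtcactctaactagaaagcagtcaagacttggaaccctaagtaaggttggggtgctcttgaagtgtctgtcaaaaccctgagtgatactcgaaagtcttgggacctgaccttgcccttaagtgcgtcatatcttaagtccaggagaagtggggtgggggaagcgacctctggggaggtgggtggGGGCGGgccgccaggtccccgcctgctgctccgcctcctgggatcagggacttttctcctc
Col11a1: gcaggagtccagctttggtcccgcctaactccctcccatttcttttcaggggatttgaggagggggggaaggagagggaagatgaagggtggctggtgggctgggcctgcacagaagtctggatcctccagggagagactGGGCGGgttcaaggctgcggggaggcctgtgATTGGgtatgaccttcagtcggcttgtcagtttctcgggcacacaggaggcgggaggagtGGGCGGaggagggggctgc
Col11a2: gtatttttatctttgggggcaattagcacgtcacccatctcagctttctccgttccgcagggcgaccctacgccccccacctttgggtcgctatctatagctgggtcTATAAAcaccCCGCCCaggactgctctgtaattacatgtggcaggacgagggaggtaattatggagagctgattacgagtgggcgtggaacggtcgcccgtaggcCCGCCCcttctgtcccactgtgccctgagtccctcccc
Col6a1: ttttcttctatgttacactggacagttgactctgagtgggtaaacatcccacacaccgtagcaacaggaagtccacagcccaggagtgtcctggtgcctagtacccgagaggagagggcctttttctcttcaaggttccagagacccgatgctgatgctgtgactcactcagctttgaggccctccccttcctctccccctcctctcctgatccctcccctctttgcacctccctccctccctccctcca

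The Col7a1 run holds a CCAAT box and a GC box, the Col11a1 run a CCAAT box and a pair of GC boxes, and the Col11a2 run a TATA box and a pair of GC boxes, while none of these letters occurs in the Col6a1 run. RefSeq windows of 300 bases, which reach 50 bases past the start, were matched for 30 of the 38 collagens in 33 windows. A GC box lay in 57.6% of the collagen windows, against 35.7% of 32851 windows of all genes. The TATA box lay in 15.2% against 13.6%, the CCAAT box in 30.3% against 37.4%, ACAAAG in 15.2% against 18.7% and ACAATG in 3.03% against 12.6%. These are matches of letters only, and whether they go with the calls was not tested. Windows with and without matches occurred among genes called and not called. Those of Col24a1 and Col19a1, both called higher, held none of these letters, while that of Col5a3, also called higher, held 3 GC boxes. The windows of Col8a1 and Col8a2, not called, held 4 GC boxes each, while that of Col6a3, also not called, held none of these letters.

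Per unit of length, the 5 most abundant collagen genes of the control pools were those of type II and type IX collagen and Col1a2 of type I. In CPM (counts scaled to a fixed library total) per kilobase of the longest transcript, Col2a1 stood at 1482 ± 147 (SD, n = 3 here and below), Col9a1 at 871 ± 154, Col9a2 at 859 ± 125, Col1a2 at 597 ± 71.6 and Col9a3 at 467 ± 58.8. Col9a1 and Col9a2 did not differ beyond their spread. Col11a2 followed at 224 ± 40.5, Col3a1 at 145 ± 21.2 and Col11a1 at 110 ± 20.3. At the low end of the tested genes Col20a1 stood at 0.0751 ± 0.0253. In the control libraries Col2a1, Col9a1, Col9a2, Col9a3, Col1a2 and Col11a2 held 86.1% of the reads of these collagens. Col1a1 stood at 15.4 ± 5.22 CPM per kilobase. Whether the deposited counts hold all of its reads was not tested, so this ranking and the read shares here and below rest on the counts as deposited.

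**Figure D2:**
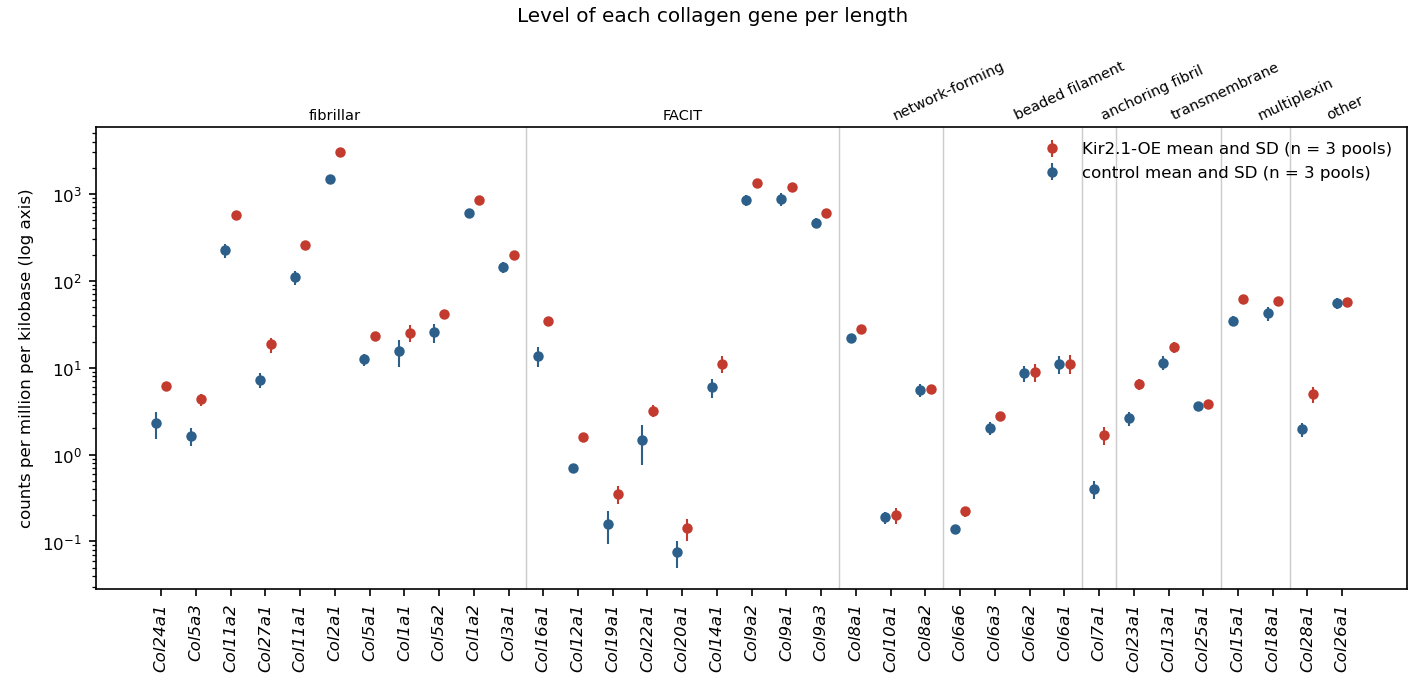
Level of the 35 tested collagens in CPM per kilobase of the longest transcript (vertical log axis), by class (horizontal axis). Points are means of 3 pools and bars the SD, red for Kir2.1-OE and blue for control; Col2a1, the Col9a genes and Col1a2 stand highest in both groups.

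The 38 collagens together took 3.86%, 4.20% and 3.65% of all assigned reads in Kir2.1-OE libraries and 1.95%, 2.52% and 2.29% in controls. The groups did not overlap, and the means were 3.90% ± 0.276 and 2.25% ± 0.285, a ratio of 1.73. Without Col2a1 the difference was 0.880 percentage points. Col2a1 held 39.0% of these collagen reads in Kir2.1-OE libraries and 33.7% in controls.

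Most fibrillar collagens rose. All 11 were tested, 9 were called higher, 6 of them also against a log2 fold change of 0.6, and the median log2 fold change was 1.02. With the offsets 2 of the 11 were called higher (Col11a1 and Col24a1) and the median was 0.32. In all 11 genes the Kir2.1-OE libraries lay above the controls.

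Col2a1 (chr15:97975602-98004695, mm10, minus strand) encodes the chain of type II collagen, the principal fibril of cartilage and of the tectorial membrane. It had 549558, 652943 and 520279 normalized counts in Kir2.1-OE and 256397, 312643 and 282635 in controls. Every Kir2.1-OE library was well above the highest control, and the log2 fold change was 1.02 ± 0.114 (SE; adjusted p = 2.09e-04, edgeR's quasi-likelihood test). With the offsets it was 0.32 ± 0.114 (adjusted p = 0.0558, edgeR) and the call was lost.

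Col11a1 and Col11a2 encode chains of type XI collagen, which sits inside type II fibrils and limits their width, and mutations of both genes cause hearing loss in humans. Col11a1 (chr3:114030540-114220718, plus strand) had 74746, 81227 and 68400 normalized counts in Kir2.1-OE and 25195, 36499 and 33461 in controls. Col11a2 (chr17:34039437-34066685, plus strand) had 138047, 141221 and 112904 against 41633, 60022 and 50943. Neither gene overlapped between groups, and in both control replicate 1 was the lowest library. The log2 fold change of Col11a1 was 1.24 ± 0.134 (adjusted p = 1.91e-04, edgeR) and that of Col11a2 1.36 ± 0.140 (adjusted p = 1.69e-04). With the offsets Col11a1 stayed called at 0.64 ± 0.116 (adjusted p = 0.00385), whereas Col11a2 stood at 0.51 ± 0.128 (adjusted p = 0.0145), under the fold change threshold.

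Type V collagen chains take part in the initiation of type I fibrils. Col5a1 had 6994, 7234 and 7545 normalized counts in Kir2.1-OE and 3576, 4682 and 3609 in controls (log2 fold change 0.88 ± 0.107). Col5a2 had 9556, 10476 and 10817 against 4660, 7819 and 6720 (0.68 ± 0.159). Col5a3, the least abundant of the 3 chains, had 1065, 806 and 1110 against 333, 475 and 322 (1.40 ± 0.172). No Kir2.1-OE library of these chains fell within the control range, and the adjusted p-values from edgeR were 2.75e-04, 0.00609 and 2.89e-04. With the offsets their log2 fold changes were -0.06, 0.12 and 0.57, and none was called. Without control replicate 1 the call of Col5a2 was lost (0.499).

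Col24a1 and Col27a1 encode fibrillar collagens that are expressed in developing bone and in cartilage respectively. Col24a1 had 1750, 1668 and 1532 normalized counts in Kir2.1-OE and 392, 808 and 662 in controls. Col27a1 had 6292, 5351 and 4203 against 1693, 2479 and 2044. In both genes the lowest Kir2.1-OE library exceeded the highest control by a clear margin. The log2 fold changes were 1.41 ± 0.209 for Col24a1 (adjusted p = 6.63e-04, edgeR) and 1.35 ± 0.165 for Col27a1 (adjusted p = 2.73e-04). With the offsets they were 0.74, still called, and 0.40, not called.

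The chains of type I collagen, the main fibril of bone and of most connective tissue, and of type III collagen, found in distensible tissue, had log2 fold changes between 0.46 and 0.71. Col1a2 had 156496, 187325 and 170515 normalized counts in Kir2.1-OE and 103754, 124298 and 131469 in controls (log2 fold change 0.52 ± 0.109, adjusted p = 0.00377, edgeR), under the fold change threshold. Col1a1 had 4881, 4901 and 7138 against 2109, 4274 and 3926 (0.71 ± 0.242, adjusted p = 0.0334). Its counts were 23.9 to 49.2 times below those of Col1a2 in the same library, although the chains occur in 1 protein. Whether the deposited counts hold all reads of Col1a1 was not tested, so its level and its fold change are uncertain. Control replicate 1 lay far below the other Col1a1 libraries, and the call was lost without it (0.46) and also without Kir2.1-OE replicate 1 (0.79) or Kir2.1-OE replicate 3 (0.495). Col1a2 was called only without control replicate 3 (0.59). Col3a1 had a log2 fold change of 0.46 (adjusted p = 0.00885). With the offsets all 3 genes were near 0 (-0.04 for Col1a2, -0.02 for Col1a1 and -0.04 for Col3a1).

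Among the FACIT collagens, 6 of 9 were called higher, 2 of them against a log2 fold change of 0.6, with a median log2 fold change of 0.92. With the offsets 1 was called (Col16a1) and the median was 0.35. In all 9 the Kir2.1-OE libraries lay above the controls.

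Type IX collagen has 3 chains that lie along type II fibrils and is a component of the tectorial membrane. Col9a1 had 170466, 178759 and 163098 normalized counts in Kir2.1-OE and 100618, 143403 and 132200 in controls. Col9a2 had 148009, 158520 and 132853 against 79685, 106812 and 96405. Col9a3 had 69948, 72248 and 64191 against 46039, 59204 and 55000. The groups were separate in every chain but by narrow margins, with control replicate 1 lowest each time. The log2 fold changes were 0.45 ± 0.125, 0.64 ± 0.118 and 0.37 ± 0.103 for Col9a1, Col9a2 and Col9a3 (adjusted p = 0.0147, 0.00195 and 0.0153, edgeR), and only Col9a2 passed the fold change threshold. Its call was lost without control replicate 1 (0.53) or Kir2.1-OE replicate 2 (0.55). With the offsets the chains stood at 0.27, 0.32 and 0.13.

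Col16a1, whose product is found at fibrils of cartilage and in basement membrane zones, had 7010, 6980 and 6166 normalized counts in Kir2.1-OE and 2174, 3455 and 2390 in controls. All Kir2.1-OE values stood well apart from the controls, with a log2 fold change of 1.33 ± 0.155 (adjusted p = 2.35e-04, edgeR). With the offsets it was 0.64 ± 0.129 (adjusted p = 0.0059), still called.

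Col12a1 and Col14a1 encode collagens that bind type I fibrils in tendon and other dense tissue. Col12a1, the longest transcript of the group at 11511 nt, had 663, 613 and 763 normalized counts in Kir2.1-OE and 306, 330 and 278 in controls (log2 fold change 1.16 ± 0.118, adjusted p = 1.66e-04, edgeR). Col14a1 had 2401, 2274 and 3382 against 1487, 1800 and 1065 (0.89 ± 0.196, adjusted p = 0.00465). The groups did not overlap in either gene, and the offsets took the log2 fold changes to 0.46 and 0.35, below the call.

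Col22a1, whose product marks tissue junctions such as that of muscle and tendon, had 920, 995 and 1238 normalized counts in Kir2.1-OE and 223, 559 and 668 in controls (log2 fold change 1.12 ± 0.313, adjusted p = 0.0145, edgeR). Col19a1, a collagen of basement membrane zones, had 58.5, 67.0 and 89.9 against 23.1, 47.2 and 26.5 (1.14 ± 0.324, adjusted p = 0.0156). Both had a wide spread among controls. The call of Col19a1 was lost without control replicate 1 (0.95), control replicate 3 (1.02) or Kir2.1-OE replicate 3 (0.94). With the offsets neither was called (0.34 for Col22a1 and 0.84 for Col19a1). Col20a1 was the least abundant FACIT gene and was not called (log2 fold change 0.92, adjusted p = 0.0681), except without control replicate 3 (1.21). Col19a1 and Col9a1 lie 9205 bases apart on opposite strands of chromosome 1, as Col3a1 and Col5a2 do at 24614 bases, and the use of strand in the counting is not given in the sources used here.

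The network-forming and beaded filament collagens had few calls. None of the 3 network-forming genes was called (median log2 fold change 0.09), and in none did the groups separate. Col8a1, a chain of the hexagonal network known from the corneal endothelium, ranged from 4689 to 5943 normalized counts in Kir2.1-OE and from 3932 to 4738 in controls (0.32, adjusted p = 0.0275, edgeR, under the fold change threshold). Its partner chain Col8a2 had a log2 fold change of 0.05 and Col10a1, a marker of hypertrophic chondrocytes, 0.09, with mean normalized counts of 23.5 ± 5.09 in Kir2.1-OE and 22.2 ± 3.52 in controls.

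Type VI collagen forms beaded filaments around cells. Of its 6 genes 4 were tested, with a median log2 fold change of 0.26, and 1 was called. Col6a1 (chr10:76708792-76726168, minus strand) had 1470, 1481 and 2197 normalized counts in Kir2.1-OE and 1491, 2138 and 1465 in controls, so that 1 library of each group was high and the groups overlapped fully (log2 fold change 0.01 ± 0.185). Col6a2 overlapped in the same way (0.05). Col6a3, the long partner chain, was higher by 0.47 (adjusted p = 0.0124, edgeR), under the fold change threshold except without control replicate 2 (0.59). Col6a6 had 70.8, 83.9 and 64.5 normalized counts in Kir2.1-OE and 49.2, 40.9 and 47.8 in controls, with a log2 fold change of 0.67 ± 0.227 (adjusted p = 0.0330). The Col6a6 call was lost without any 1 of 5 libraries, all but Kir2.1-OE replicate 3 (0.53 to 0.72). With the offsets the class median was -0.37, and Col6a3 had a log2 fold change of -0.42 (adjusted p = 0.0306). Col6a4 had 3, 2 and 3 counts in Kir2.1-OE and 0 in every control, and Col6a5 had 5, 4 and 2 against 0, 2 and 0, too few to be tested.

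Col7a1 (chr9:108953586-108984875, plus strand), the gene of the anchoring fibrils that tie epithelial basement membranes to the underlying tissue, had the largest difference of the collagens. It had 625, 700 and 435 normalized counts in Kir2.1-OE and 172, 144 and 106 in controls. The lowest Kir2.1-OE library was far above the highest control, and the log2 fold change was 2.06 ± 0.217, a fold change of 4.17 (adjusted p = 1.76e-04, edgeR). At 9250 nt its transcript is among the longest, and with the offsets the log2 fold change was 1.00 ± 0.184 (adjusted p = 0.004), still called. In controls its level was 0.405 ± 0.0951 CPM per kilobase.

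Of the 4 transmembrane collagens, 3 were tested and 2 were called higher. Col23a1 had 1595, 1205 and 1328 normalized counts in Kir2.1-OE and 480, 677 and 528 in controls, without overlap (log2 fold change 1.29 ± 0.145, adjusted p = 2.1e-04, edgeR). It stayed called with the offsets (0.70). Col13a1, a collagen known from the neuromuscular junction, had 2308, 2104 and 1730 against 1066, 1483 and 1503 (0.60 ± 0.145, adjusted p = 0.00726). Its call was lost without control replicate 1 (0.45), Kir2.1-OE replicate 1 (0.49) or Kir2.1-OE replicate 2 (0.55), and with the offsets (0.34). Col25a1, a neuronal collagen, overlapped between groups (0.09), and with the offsets its log2 fold change was -0.34 (adjusted p = 0.0195). Col17a1, of the hemidesmosome, had 8 to 11 counts in Kir2.1-OE libraries and 4 to 9 in controls and was not tested.

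The multiplexins Col15a1 and Col18a1 encode collagens of basement membrane zones, and the end of type XVIII is released as endostatin. Col15a1 had 12021, 12123 and 11535 normalized counts in Kir2.1-OE and 5825, 7543 and 6795 in controls, a tight group against a lower one (log2 fold change 0.82 ± 0.096, adjusted p = 2.35e-04, edgeR), and with the offsets 0.28. Col18a1 was higher by 0.48 (adjusted p = 0.0132), under the fold change threshold, and stood at -0.27 with the offsets.

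The other pair of genes diverged. Col28a1 (chr6:7997808-8192617, minus strand), whose product is known from peripheral nerve, had 864, 599 and 882 normalized counts in Kir2.1-OE and 244, 347 and 342 in controls. The groups were well separated, with a log2 fold change of 1.33 ± 0.181 (adjusted p = 4.48e-04, edgeR). Its transcript is short for this group, at 4230 nt, and with the offsets the log2 fold change was 1.14 ± 0.167 (adjusted p = 0.00172), the largest among the collagens in that model. Col26a1 had 4971 to 6519 normalized counts over all 6 libraries and a log2 fold change of 0.03 ± 0.0973.

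**Figure D3:**
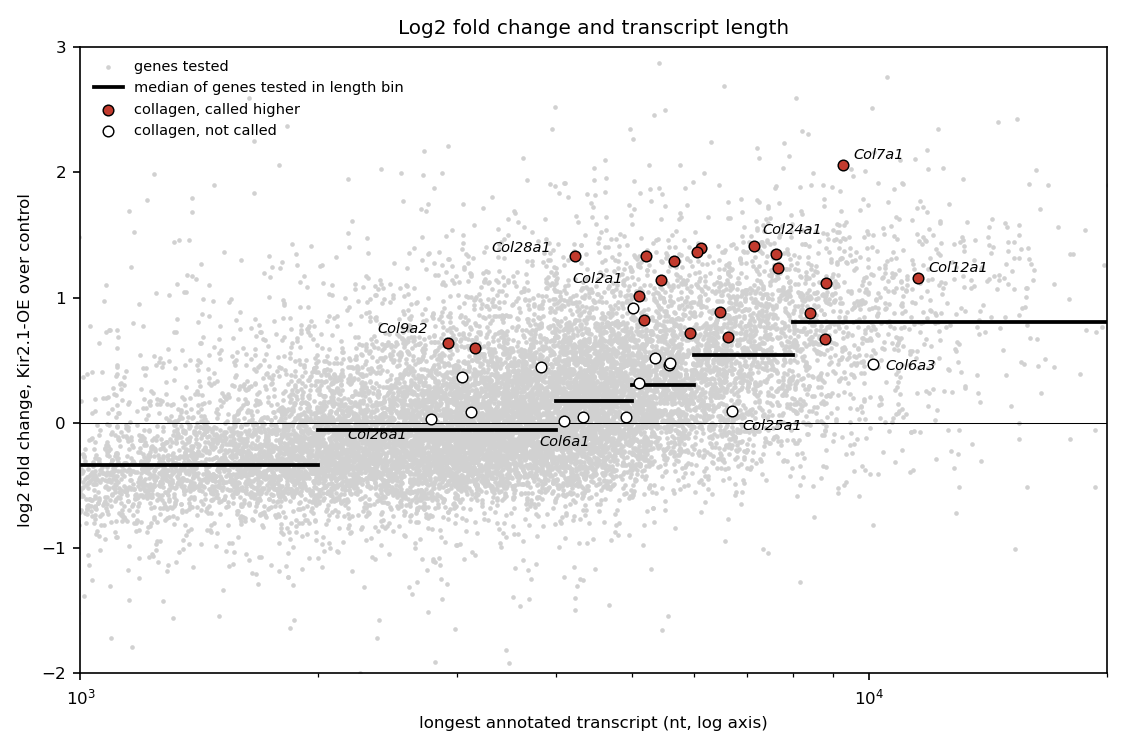
Log2 fold change of Kir2.1-OE over control (vertical axis) against the length of the longest annotated transcript in nt (horizontal log axis). Grey points are genes tested, black lines the median of the genes in each length bin, red circles collagens called higher and white circles collagens not called; genes beyond the axes are not drawn, and 29 of the 35 collagens lie above the median of their bin.

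Read within bins of transcript length, the collagens mostly lay above other genes of like length. Between 2000 and 4000 nt, 2 of 6 collagens were called higher, beside 6.67% of all genes in the bin. Between 4000 and 5000 nt it was 1 of 4 beside 16.9%, and between 5000 and 6000 nt 6 of 11 beside 25.3%. Between 6000 and 8000 nt it was 7 of 8 beside 44.6%, and from 8000 nt upwards 5 of 6 beside 64.0%. The bin medians of all genes rose from -0.06 to 0.81 over this range, and 29 of the 35 collagens lay above the median of their bin. The 3 of 4 collagens between 4000 and 5000 nt that lay below it were Col6a1, Col6a2 and Col8a2, and the other 3 below their bin's median were Col25a1, Col6a3 and Col6a6.

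**Figure D4:**
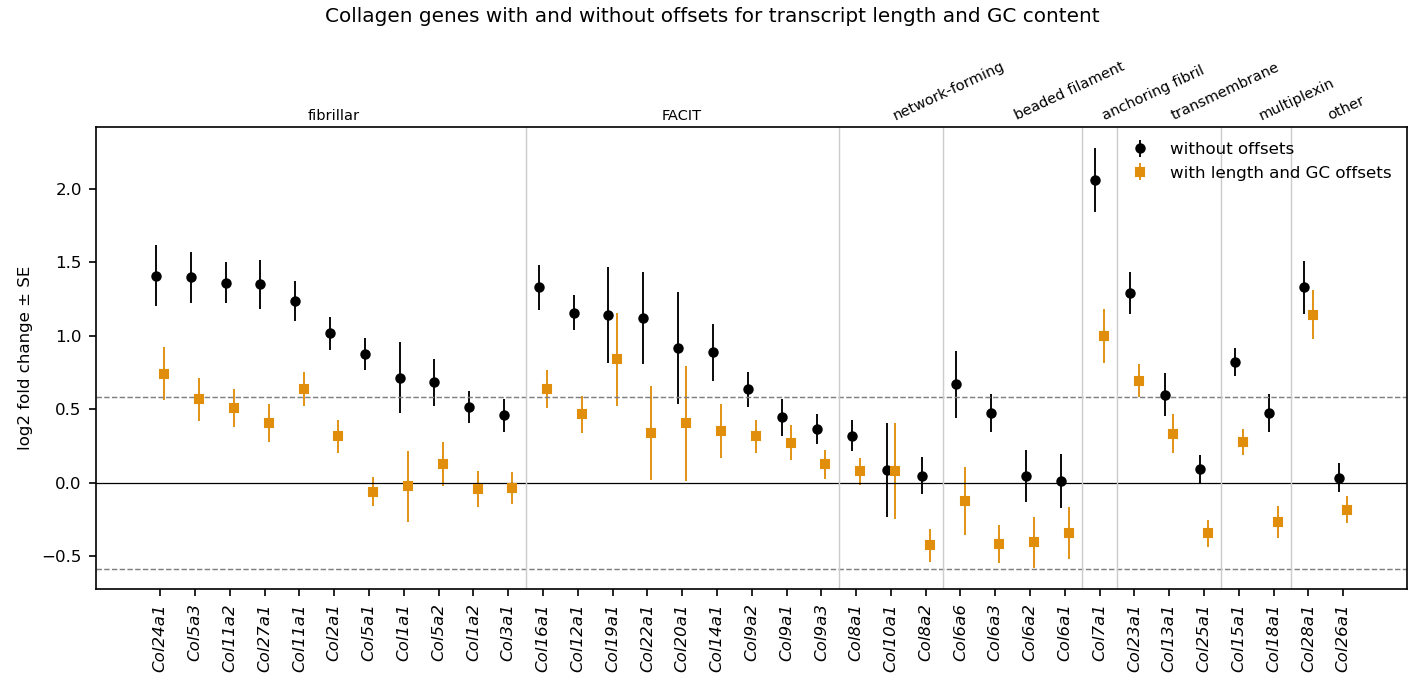
Log2 fold change ± SE of the 35 tested collagens without offsets (black circles) and with offsets for transcript length and GC content (orange squares), by class. Dashed lines mark a fold change of 1.5 in either direction; the fibrillar and FACIT medians fall from 1.02 and 0.92 to 0.32 and 0.35.

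With the offsets 23 of the 35 collagens had a positive log2 fold change and 12 a negative one. At an adjusted p-value under 0.05 in that model (edgeR), 11 were positive and 3 negative. The 3 were Col8a2 (-0.43), Col6a3 (-0.42) and Col25a1 (-0.34), none of which was lower in the model without offsets. The beaded filament median went from 0.26 to -0.37 between the models and that of the network-forming genes from 0.09 to 0.08. The latter median was the value of Col10a1 without the offsets and of Col8a1 with them. Gene by gene, Col8a1 went from 0.32 to 0.08, Col8a2 from 0.05 to -0.43 and Col10a1 from 0.09 to 0.08.

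Ratios of chains within a library do not depend on scaling between libraries, and 12 pairs were compared. With 3 pools against 3, the exact permutation test (two-sided) cannot go below p = 0.1, which becomes 0.171 after Benjamini-Hochberg adjustment over the 12 pairs, so no pair could pass. The 7 pairs whose groups did not overlap reached that smallest value. How many ratios of other gene pairs would not overlap was not computed. Of all single genes tested, 61.6% did not overlap in either direction. The log2 ratio of Col9a1 to Col2a1 was -1.69, -1.87 and -1.67 in Kir2.1-OE libraries and -1.35, -1.12 and -1.10 in controls, a difference of -0.55. Relative to Col2a1, Col11a2 was higher by 0.36 and Col11a1 by 0.24. Within type IX, Col9a3 and Col9a1 were lower relative to Col9a2 by -0.27 and -0.18. The other non-overlapping pairs were Col6a3 over Col6a2 (0.44) and Col8a1 over Col8a2 (0.26). The type XI pair Col11a1 over Col11a2 (-0.12), Col6a1 over Col6a2 (-0.03), Col5a1 over Col5a2 (0.17), Col1a1 over Col1a2 (0.24) and Col3a1 over Col1a1 (-0.29) overlapped between groups. The chains of a pair differ in transcript length (Col9a1 3834 nt, Col2a1 5104 nt), and no ratio was computed with the offsets. In the model with the offsets, Col9a1 and Col2a1 stood close together (0.27 and 0.32), as did Col6a3 and Col6a2 (-0.42 and -0.41). The other non-overlapping pairs kept their order there: Col11a2 stood at 0.51, Col11a1 at 0.64, Col9a2 at 0.32, Col9a3 at 0.13, Col8a1 at 0.08 and Col8a2 at -0.43. The part of length in these ratios was not tested further.

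**Figure D5:**
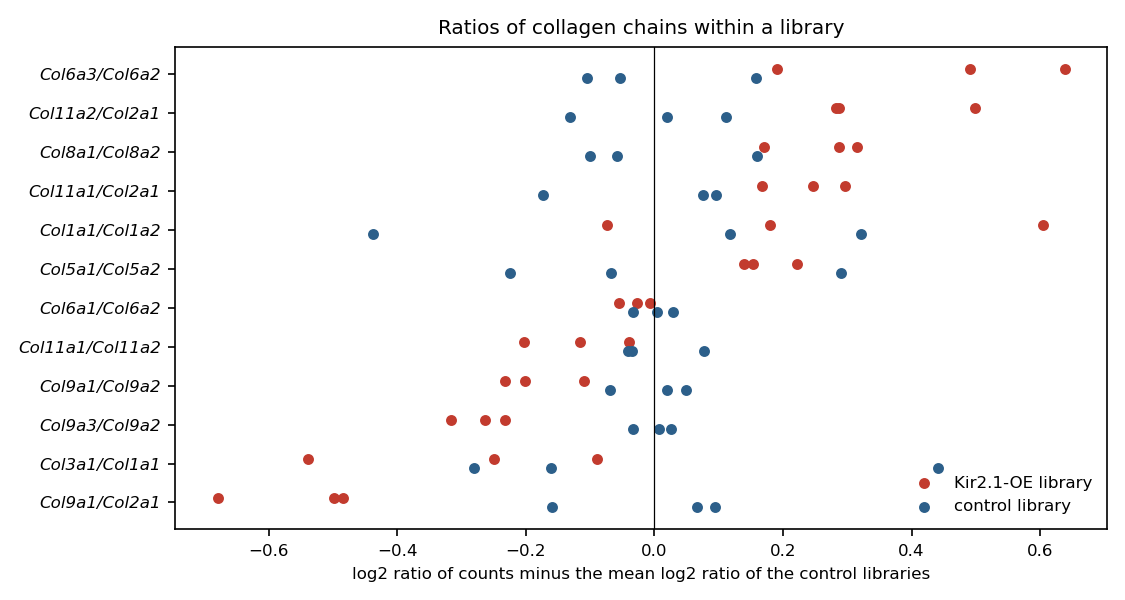
Log2 ratio of the counts of 2 collagen chains in each library, minus the mean log2 ratio of the control libraries (horizontal axis), for 12 pairs (vertical axis). Each point is 1 library, red for Kir2.1-OE and blue for control; Col9a1 over Col2a1 shows the widest separation, at -0.55 between the means.

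Type IV collagens, the network of basement membranes, are given for comparison only. Of 6 genes, 5 were called higher with a median log2 fold change of 1.17, and 2 with the offsets (median 0.39). Among all genes 15.5% were called higher, and 6.45% with the offsets. The type IV transcripts had 6450 to 10108 nt. Of all genes, 44.6% were called higher between 6000 and 8000 nt and 64.0% from 8000 nt upwards. The difference between type IV and the other collagens was not tested.

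Genes that modify, export, cleave and bind collagens were read from the same fit. Of 45 such genes, all tested, 13 were called higher and 2 lower, beside 15.5% and 5.08% of all genes, with a median log2 fold change of 0.20. The count called lower is near that background. Tested against a log2 fold change of 0.6, 3 were higher (P3h2, Mia3 and Itga1). With the offsets 4 were higher (P3h2, Mia3, Adamts3 and Itga1) and 1 lower (P4ha2), beside 6.45% and 3.4% of all genes, counts near the background. Of the 5 genes of export, 2 were called: Mia3, which loads procollagen into transport carriers, had a log2 fold change of 1.14 (adjusted p = 2.67e-04, edgeR), and Creb3l2 also rose. P3h2, a prolyl hydroxylase, had 1.21 (adjusted p = 0.0014) and Loxl4, a crosslinking oxidase, 1.26 (adjusted p = 0.0222). Loxl4 had a wide spread among controls (17.1, 28.2 and 55.0 normalized counts, against 96.5, 80.9 and 62.4 in Kir2.1-OE). Among 6 collagen receptors 4 were called higher (Itga1, Itga2, Itga10 and Itga11), and among 8 genes of propeptide removal 3 (Adamts2, Adamts3 and Tll2). Loxl2 was the other crosslinking gene called, of 5, and P3h3 the other gene of prolyl hydroxylation and folding called higher, of 11. The median log2 fold change of those 11 was -0.21, and 3 were positive. In 5 of the 11 the Kir2.1-OE values all lay below the controls and in 3 above, beside 29.9% and 31.7% of all genes. None of the 5 genes of lysyl hydroxylation and glycosylation was called.

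The genes called lower were Mmp13, a collagenase, at -1.27 (adjusted p = 0.0381, edgeR), and P4ha2, a subunit of the prolyl hydroxylase that stabilises the helix, at -1.09 (adjusted p = 0.0129). Mmp13 was the only 1 of 5 collagenases called. Ppib, a folding isomerase, had the third lowest value at -0.50 (adjusted p = 5.61e-04), under the fold change threshold. Its normalized counts were 13325, 14539 and 14514 in Kir2.1-OE and 20337, 19507 and 19995 in controls, without overlap. The counts of this list changed with single libraries: without Kir2.1-OE replicate 2 only 7 were called higher, and the number called lower was 0 without Kir2.1-OE replicate 1 and 1 without Kir2.1-OE replicate 2, control replicate 1 or control replicate 2.

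Markers of cell types that the dissected tissue could hold were read from the same fit, and their counts of calls stand beside 15.5% of all genes called higher and 5.08% lower. Of 8 chondrocyte markers 6 were tested (Matn3 and Comp were not) and 1 was called higher, near the share of all genes; it was Acan, with a log2 fold change of 1.54. With the offsets 2 of the 6 were called higher (Acan and Chad), beside 6.45% of all genes. The summed normalized count of the 8 chondrocyte markers ranged from 48627 to 51795 in Kir2.1-OE and from 40763 to 53889 in controls. Of 8 osteoblast and osteocyte markers 3 were called higher (Dmp1, Phex and Mepe), and their sum ranged from 126341 to 142445 in Kir2.1-OE and from 35366 to 132898 in controls. The lowest sum was that of control replicate 1, in which Bglap had 2522 normalized counts against 9091 and 17352 in the other controls. Control replicate 1 was also the lowest control for 22 of the 35 tested collagens. Without it 15 collagens were called higher and 0 lower, the 6 calls lost being those of Col1a1, Col5a2, Col9a2, Col19a1, Col6a6 and Col13a1.

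Schwann cell markers summed to 373316 to 490349 in Kir2.1-OE and 264680 to 338153 in controls (2 of 6 called higher), and endothelial markers to 4738 to 5115 and 2746 to 3723 (3 of 4 called higher). The sum of fibroblast markers went the other way, with 76768 to 83817 and 102328 to 105725. Most of it was Lum, with means of 53613.5 in Kir2.1-OE and 75479.7 in controls. Of the 6 fibroblast markers 1 was called higher (Pdgfra, 0.63) and 1 lower (Mfap5, -0.86). Their median log2 fold change was -0.42, and -0.31 with the offsets. With the offsets the medians were 0.77 for osteoblast and osteocyte, 0.53 for Schwann cell, 0.51 for endothelial and 0.47 for chondrocyte markers. They were 0.03 for hair cell, -0.01 for fibrocyte and -0.11 for supporting cell markers. Fibrocyte markers (2 of 7 called higher) spanned 236894 to 310660 and 188670 to 315465. The sums of hair cell markers (46019 to 55877 and 45136 to 50524, 3 of 9 called higher) and supporting cell markers (96586 to 112040 and 94022 to 108645, 2 of 8 called higher) overlapped. No marker gene was at 0 in all libraries. The part of cell composition in the collagen differences was not tested.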

How the data were processed

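RNA of 3 Kir2.1-OE and 3 control pools was analysed. The authors mapped reads to mm10 with the nf-core RNA pipeline and Salmon, and deposited expected counts (estimated reads per gene, need not be whole, not scaled for length or depth). Tool versions, gene annotation and strand setting are not given in the sources used here. The counts were rounded before a fit in edgeR 4.0.16 under R 4.3.3 (limma 3.58.1 and DESeq2 1.42.0 in alternatives), using TMM scaling (factors 0.984 to 1.01), filterByExpr, which kept 15303 genes, and no covariates. glmTreat was used for the threshold of 0.6 on the log2 scale. Normalized counts are scaled by TMM library sizes. Libraries of a group differed by more than sampling noise (chi-square per degree of freedom 16.3 to 32.4). Between 35430940 and 41205047 reads were assigned per library.

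Transcript length, GC content and positions came from the longest transcript in GENCODE vM21, to which 23376 symbols were matched, 651 more through an older symbol. Offsets were loess trends (span 0.4), on length and GC content, of the log2 ratio between a library and the mean of all. The pipeline was checked on simulated data.

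The genes with values in every library were the called collagens whose normalized count averaged 50 or more, and the 5 with the highest CPM per kilobase in controls. Other collagens are given by range and count, or by single values at the ends of their class. Synthesis genes are named when called, with values for the 3 highest and 3 lowest. Alternatives were other scalings, filters and tests, a replicate block, the offsets and each library left out. The members, lists and rules were chosen with earlier results of these data known.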

Additional observations from a re-analysis of the deposited data

How the results depend on the processing

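Of 21 collagens called higher, 21 were called with DESeq2's size factors, library size alone, no filter, limma-voom or unrounded counts, 18 with upper quartile scaling (Col9a2, Col6a6 and Col13a1 lost), 20 with the replicate block (Col6a6 lost), 19 with DESeq2's Wald test (Col1a1 and Col6a6 lost), 22 with at least 10 counts in every library (Col20a1 gained), and 15 to 20 with each library left out in turn (15 to 21 collagens in all, with Col6a3 gained without control replicate 2, and Col1a2 and Col20a1 without control replicate 3); 0 were called lower under any alternative. Pools of the same number correlated at -0.106, -0.232 and -0.213 in their deviations from the group means. With 3 pools per group these values cannot show whether pools of the same number shared litters. The deposited table of control replicate 1 carries the number 4 in its header, so its number 1, which the block uses, rests on the label alone. Length and GC offsets left 6 called (6 with the replicate block too), and offsets from length alone, chosen after seeing the data, 11; against a log2 fold change of 0.6 these 3 models gave 0, 0 and 0, and medians of 0.28, 0.29 and 0.36. All genes called higher numbered 987 with offsets, 799 with offsets and block, 1088 with length offsets and 4184 by adjusted p alone. All genes called lower numbered 1378 with upper quartile scaling, 443 with offsets and block and 3590 by adjusted p alone. The share of calls that were higher was 75.2%, against 57.9% with upper quartile scaling, which gave 18 collagens higher and 0 lower and moved the median of all genes by -0.0893. Synthesis genes called higher numbered 4 with offsets, 4 with offsets and block, 6 with length offsets, 21 by adjusted p alone and 7 to 15 with each library left out. Those called lower numbered 1 with the block, 1 with offsets, 0 with both, 1 with limma-voom, 5 by adjusted p alone and 0 to 2 with each library left out. Without Col2a1 the difference in read share was 0.880 percentage points.

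Values that changed sign were, with upper quartile scaling, Col8a2 -0.039, Col10a1 -0.0017, Col6a1 -0.074, Col6a2 -0.041 and Col26a1 -0.054. With offsets they were Col1a1 -0.024, Col1a2 -0.042, Col3a1 -0.036, Col5a1 -0.061, Col8a2 -0.43, Col6a1 -0.34, Col6a2 -0.41, Col6a3 -0.42, Col6a6 -0.12, Col25a1 -0.34, Col18a1 -0.27 and Col26a1 -0.18. With offsets and the replicate block they were Col1a2 -0.041, Col3a1 -0.038, Col5a1 -0.061, Col8a2 -0.42, Col6a1 -0.35, Col6a2 -0.42, Col6a3 -0.42, Col6a6 -0.12, Col25a1 -0.34, Col18a1 -0.26 and Col26a1 -0.18. With length offsets they were Col8a2 -0.13, Col6a1 -0.13, Col6a2 -0.22, Col6a3 -0.31, Col6a6 -0.047 and Col25a1 -0.43. With libraries left out, Col8a2 ran from -0.0497 to 0.19, Col10a1 from -0.081 to 0.23, Col6a1 from -0.22 to 0.22, Col6a2 from -0.18 to 0.23 and Col26a1 from -0.063 to 0.13. The cause of these changes was not tested. The 84 chain-ratio values under alternatives include those of the replicate block, which repeat the main values and could not move. The others, each from dropping a single library, kept their direction and moved by less than the spread between replicates. These share most of their libraries with the main comparison, and no other alternative was tried for the ratios.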

Other observations

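The chains of type I collagen, which occur together in the same protein, were counted at very unequal levels. Per kilobase, Col1a2 stood 26.5 to 54.6 times above Col1a1 across the 6 libraries, and in plain counts 23.9 to 49.2 times. The control level of Col1a1 was 15.4 ± 5.22 CPM per kilobase (SD, n = 3).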
